A study of Mus musculus with 2 samples.

Results

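Keratocytes, the resident fibroblast-like cells of the corneal stroma, were taken here as the cells that the deposited table of cells places in cluster 0 of 17. The cluster held 4088 of 28867 cells, 2369 of the 16450 cells from unwounded corneas (UW) and 1719 of the 12417 cells from wounded corneas (W). Its cells were chosen by that cluster number alone, and the cluster number was set by the authors from the expression of variable genes of the same cells, so genes that set the cluster apart from other cells are a description and were not tested.

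The UW library pooled the corneas of 4 untreated male mice aged 6 to 8 weeks, and the W library those of 4 such mice taken 24 h after the central corneal epithelium had been marked with a trephine and scraped off, with the stroma left in place. By the study's methods, wounding also involved pentobarbital anaesthesia, topical procaine, fluorescein staining and ofloxacin, none of them described for the UW mice. Their effects cannot be told apart from that of the wound. The strain is not given in the sources used here, and they give no genetic change for either group. Corneas were kept overnight in cold dispase to lift off the epithelium, the rest was digested with collagenase, and the cells of each group were pooled before capture on the 10x Genomics 3′ platform, which counts unique molecular identifiers (UMIs), a tag for each captured RNA molecule. With 1 library per condition there was no replicate, so a difference between the libraries carries no test, and every interval below covers counting error only, not differences between animals.

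The stroma makes up most of the thickness of the cornea. Keratocytes lie flat between its lamellae of collagen I and V fibrils and secrete the small leucine-rich proteoglycans, such as decorin, lumican and keratocan, which set fibril diameter and spacing and so keep the tissue clear. They divide rarely in an uninjured cornea, and loss of the overlying epithelium is known to alert them, to recruit leukocytes from the limbus and, after deeper wounds, to turn some of them into fibroblasts and contractile myofibroblasts.

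Keratocytes of the UW library had a median depth of 11853 UMIs, from 3540 genes, and those of the W library had 17588 UMIs from 4264 genes. The summed counts were 28443236 UMIs in UW and 32449791 in W. The mean number of UMIs per cell was 1.57 times higher in W, so levels are given as counts scaled to a sum of 1000000 over all UMIs of the cluster's cells in the library (CPM), and counting UMIs per cell instead adds 0.65 to each log2 ratio of W over UW. The median log2 ratio over the genes tested was -0.12 in CPM and 0.53 per cell. Median mitochondrial content was 3.02% in UW and 2.63% in W. The libraries shared 52 cell barcodes in all and 1 among keratocytes.

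All 6 markers named for the cluster were abundant in both libraries. Their summed level was 78375 CPM in UW and 41212 CPM in W, against 310 and 368 CPM in the epithelial clusters (1 to 9 and 11), and the other stromal cluster, number 10, had 67219 and 40046 CPM. Markers that define other cells were low. Of 20 markers of neutrophils, mononuclear phagocytes, lymphocytes and all leukocytes, *Lyz2* alone reached 10 CPM in UW, and *S100a8*, *S100a9* and *Lyz2* did so in W. *Ptprc*, the pan-leukocyte antigen CD45, was at 0.141 CPM in UW and 0.678 CPM in W. *S100a8*, a neutrophil alarmin, was at 0.352 CPM in UW and 46.0 CPM in W, which was 0.338% of its level in the neutrophil cluster. The vascular endothelial list summed to 217 and 76.5 CPM, nearly all of it *Kdr*, and the Schwann and melanocyte lists were at or below 2.21 CPM in both libraries. The list for corneal endothelium summed to 493 and 307 CPM and that for mural cells to 171 and 214 CPM. Markers of limbal and scleral stroma summed to 317 and 282 CPM in keratocytes and to 3548 and 3983 CPM in cluster 10.

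Epithelial RNA was present in the keratocytes of both libraries at a low level. *Krt12*, the differentiation keratin of corneal epithelium, was at 1554 CPM in UW keratocytes and 736 CPM in W keratocytes, 5.81% and 5.96% of its level in epithelial cells of the same library. *Krt14*, a basal keratin, went from 57.4 to 821 CPM in keratocytes while it went from 514 to 11192 CPM in the epithelium. *Aldh3a1*, a corneal crystallin enzyme listed as epithelial, stood apart from the other markers at 77.5% and 82.8% of its epithelial level. When the profile of the other cells was subtracted at the median level of the epithelial markers (6.33% in UW and 7.51% in W), *S100a9* and *Ptprc* had nothing left in W, nor did *Lyz2* and *Adgre1*, a macrophage marker, whereas *S100a8* kept 27.0 CPM in W and 0.296 CPM in UW. The level was set by epithelial markers, so the subtraction cannot show how much leukocyte RNA remained, here or in the gene lists below. Genes whose level in keratocytes was under 20% of that in another cluster were therefore kept out of the leading genes below, and their values are given with that level.

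Of 8036 genes with a mean of at least 10 CPM over both libraries, 300 were at least 2-fold higher in W (3.73%) and 352 at least 2-fold lower (4.38%). With trimmed mean (TMM) scaling the numbers were 380 and 232, with median-of-ratios size factors 402 and 218, and with UMIs per cell 1401 and 66, so the balance of higher and lower genes depends on the scale. The shares of 3.73% and 4.38% are the background against which the gene lists below are read, and for counts per cell the shares are 17.4% higher and 0.821% lower. The minimum applies to the mean, so a gene under 10 CPM in UW could pass it only by being higher in W, which held for 228 of the 8036 genes, and 350 genes under 10 CPM in W passed only through UW. Their number is given below for some of the gene lists that held such members. Among the others, the lists of water-soluble enzymes, NF-κB and Stat3 feedback, complement and Wnt each had 1 higher member that passed only through W. So did those of stromal secreted proteins, glycolysis, redox and angiogenic balance. The counts and medians of all lists that held such members describe the members tested. Leading genes with the highest ratios included secreted acute phase proteins, a metalloproteinase and its inhibitor, chemokines and interferon-stimulated genes. Those with the lowest ratios included the imprinted RNA *Meg3*, immediate early genes and genes of the keratocytes' resting expression. The rule that names leading genes is given with the data processing.

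**Figure D1:**
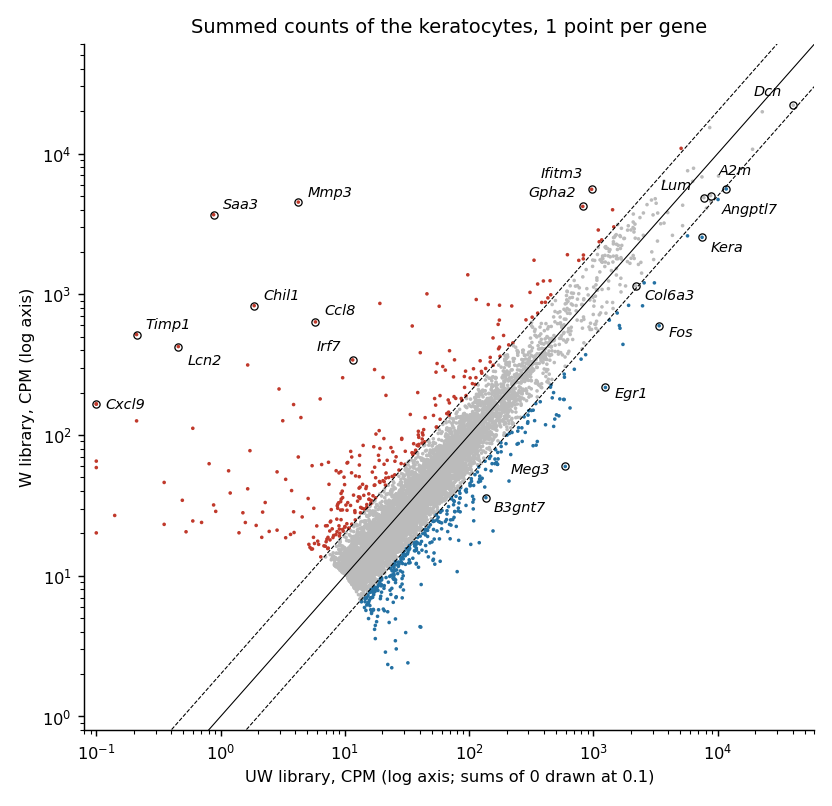
Each point is 1 of the 8036 genes tested in keratocytes, with its CPM in the UW library on the horizontal axis and in the W library on the vertical axis, both on log scales. The solid line marks equal levels and the dashed lines 2-fold, with the 300 genes above in red and the 352 below in blue. *Saa3*, *Mmp3* and *Timp1* lie far above the line because they were near 0 in UW, and all 6 keratocyte markers lie below it.

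The genes of the clear stroma were lower in W. *Kera*, which encodes keratocan, a keratan sulfate proteoglycan particular to the cornea, was at 7482 CPM in UW and 2537 CPM in W, a fall of 2.95-fold (log2 ratio -1.56, counting interval -1.57 to -1.55). *A2m*, the protease inhibitor α2-macroglobulin, fell from 11710 to 5599 CPM. *Dcn*, which encodes decorin, was at 40495 and 22050 CPM, *Lum* (lumican) at 7733 and 4853 CPM, *Angptl7*, a secreted angiopoietin-like protein of the cornea and outflow tissue, at 8772 and 5025 CPM, and *Col6a3*, a chain of microfibrillar collagen VI, at 2183 and 1146 CPM. All 6 were lower in CPM, 2 of them by at least 2-fold, and all 6 remained lower per cell, though none by 2-fold. *A2m* was also short of 2-fold with TMM scaling, size factors and thinned cells (log2 ratios -0.92, -0.89 and -0.97). Per cell, *Lum* was nearly level at 92.8 UMIs per cell in UW and 91.6 in W and *Kera* was at 89.8 and 47.9. *Dcn*, *Lum* and *Kera* lie next to each other on chromosome 10, at chr10:97479609-97518143, chr10:97565128-97572703 and chr10:97606879-97613692 (GRCm38), all on the plus strand.

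Among 7 small leucine-rich proteoglycans tested, 3 were at least 2-fold lower and none higher, with a median log2 ratio of -0.88. 6 of the 7 were lower in CPM and the same number per cell, but none by 2-fold per cell, and only *Prelp* was higher in CPM (log2 ratio 0.24). *Fmod* (fibromodulin, which binds collagen I) went from 166 to 63.9 CPM, but its level in UW keratocytes was 14.1% of that in cluster 10. The enzymes that build keratan sulfate, the sugar chain of lumican and keratocan, had 2 of 7 members lower by at least 2-fold. *B3gnt7*, which extends the poly-N-acetyllactosamine backbone, fell from 136 to 35.9 CPM (log2 ratio -1.93), and *Chst5*, a sulfotransferase for that backbone, from 295 to 121 CPM (-1.29). The 2 stayed lower per cell, at 0.41 and 0.65 of the UW value, whereas the list as a whole had 6 of 7 members lower in CPM and 2 of 7 per cell.

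Of 16 fibrillar and associated collagens tested, 8 were at least 2-fold lower and none higher, with a median log2 ratio of -0.99. 15 of the 16 were below 0 in CPM and 12 of the 16 per cell, where 1 was at least 2-fold lower and 1 higher. *Col1a1*, the main chain of the stromal fibrils, was at 10059 CPM in UW and 4711 CPM in W, and *Col1a2*, its partner, at 8786 and 4571 CPM. *Col5a1*, which starts fibrils and limits their width, was at 592 and 308 CPM. Of the collagen VI chains *Col6a1* fell from 3094 to 1205 CPM and *Col6a2* from 1636 to 573 CPM, whereas *Col6a3* was short of 2-fold, and *Col14a1* and *Col12a1*, which sit on fibril surfaces, had log2 ratios of -1.71 and -1.09. *Col1a1* and *Col12a1* stayed lower but short of 2-fold with TMM scaling (log2 ratios -0.95 and -0.94), with size factors (-0.92 and -0.91), in thinned cells (-0.95 and -0.99) and without a group of 229 W cells described below (-0.87 and -0.93). *Col3a1*, a collagen of loose and healing connective tissue, was at 14.8 and 24.5 CPM, and its level in W keratocytes was 7.31% of that in cluster 10.

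Collagen-modifying enzymes were split in CPM. Of 18 tested, 1 was higher and 1 lower by at least 2-fold, with a median log2 ratio of 0.01, whereas per cell 4 were higher and none lower by that much, 2 of the 18 were below 0 and the median was 0.66. *Lox*, the lysyl oxidase that crosslinks collagen and elastin, was at 123 CPM in UW and 337 CPM in W (log2 ratio 1.46), and *Plod1*, a lysyl hydroxylase, at 451 and 219 CPM (-1.05, but -0.90 with TMM scaling, -0.87 with size factors and -0.93 in thinned cells). The collagen chaperone *Serpinh1* was at 1173 and 1082 CPM. Among 12 water-soluble enzymes of the crystallin type, *Tkt* (transketolase, which is abundant in the cornea) fell from 2483 to 828 CPM and *Aldh3a1* went from 4321 to 2622 CPM, while *Mgst1*, a microsomal glutathione transferase, rose from 175 to 655 CPM, with 2 higher and 1 lower in all (5 and none per cell). The other that was higher, *Aldh1a3*, a retinaldehyde dehydrogenase (3.90 to 20.3 CPM), was at 3.01% of the level of another cluster, and had nothing left in W after subtracting free RNA. None of 12 transcription factors of ocular mesenchyme reached 2-fold, among them *Foxc1* (89.2 and 121 CPM) and *Lmx1b* (154 and 91.4 CPM), regulators of anterior segment development.

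*Mmp3*, *Mmp12* and *Timp1* rose from near 0, and other matrix-degrading enzymes moved less or not past 2-fold. *Mmp3*, stromelysin-1, which cleaves proteoglycans and fibronectin and activates other metalloproteinases, had 120 UMIs in all UW keratocytes (4.22 CPM, interval 3.50 to 5.04) and 146515 in W keratocytes (4515 CPM), a ratio of 1070-fold. *Mmp12*, the elastase of this family, had no UMI in UW and 1904 UMIs in W (58.7 CPM). Allowing 3 counts in UW gives a ratio of at least 556-fold. The level of *Mmp12* was 14.3 CPM in the larger and 229 CPM in the smaller of the W groups described below. Of 22 metalloproteinases counted, 11 were tested, among them *Mmp3* and *Mmp12*, which passed the minimum only through W. Of the other 9, 4 were at least 2-fold higher and 1, *Mmp23*, lower, although *Mmp23* was short of 2-fold with TMM scaling (log2 ratio -0.97), size factors (-0.94), thinned cells (-0.73) and per cell (-0.46). *Adamts5*, an aggrecanase that also cleaves versican, went from 18.6 to 71.7 CPM and *Adam9*, a membrane sheddase, from 17.7 to 49.7 CPM, whereas *Mmp2* (gelatinase A) was at 601 and 664 CPM and *Mmp14*, its activator, at 86.5 and 79.8 CPM. *Timp1*, the secreted inhibitor of metalloproteinases, had 6 UMIs in UW and 16781 in W (0.211 and 517 CPM), while *Timp2* was at 1560 and 2081 CPM and *Timp3* at 90.2 and 85.8 CPM. Among 11 protease inhibitors 3 were higher and 2 lower by at least 2-fold (4 and none per cell). The 3 that were higher in CPM, *Timp1* among them, passed the minimum only through W. *Serpina3n*, an acute phase serpin, was at 1.65 CPM in UW and 314 CPM in W. *Mmp3* and *Mmp12* lie in the same cluster of metalloproteinase genes, at chr9:7445822-7455975 and chr9:7344381-7369499.

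Acute phase and innate defence genes had the single highest ratio. *Saa3*, the serum amyloid A made outside the liver, had 25 UMIs in UW keratocytes (0.879 CPM, interval 0.569 to 1.30) and 119231 in W (3674 CPM), a ratio of 4180-fold. In W epithelial cells it was at 23.7 CPM and in cluster 10 at 1525 CPM, and no other cluster of at least 50 cells was above keratocytes. *Saa1* went from 0.211 to 126 CPM. *Saa2* had 2 UMIs in UW and 2116 in W, a ratio of 927 with a counting interval of 256 to 7663. These genes lie together at chr7:46711998-46715700, chr7:46740497-46742980 and chr7:46751790-46754313, and *Saa1* and *Saa2* are so alike in sequence that the counting may have split reads between them. *Lcn2*, the iron-sequestering lipocalin, was at 0.457 CPM in UW and 425 CPM in W, and *Chil1*, a chitinase-like lectin, at 1.86 and 830 CPM. The metal-binding metallothioneins *Mt2* and *Mt1* rose from 69.5 to 397 CPM and from 220 to 825 CPM, and *Fth1*, the ferritin heavy chain, which stores iron, was at 8618 and 15286 CPM, short of 2-fold. Of 19 members counted, 11 were tested, and 4 of these, *Saa1*, *Saa2*, *Saa3* and *Lcn2*, passed the minimum only through W. Of the other 7, 3 were at least 2-fold higher and none lower.

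Chemokines, the secreted proteins that draw leukocytes, were nearly all under 10 CPM in UW. Of 22 counted, 10 were too low for the minimum in mean CPM, and of the 12 tested 10 passed it only through W, so that they had to be higher there. 10 of the 12 were at least 2-fold higher and none lower, which describes these members only. *Ccl8*, which attracts monocytes and T cells, went from 5.80 to 636 CPM, and its level in W keratocytes was above that of every other cluster of at least 50 cells. *Cxcl9*, which attracts T cells and is induced by interferon-γ, had no UMI in UW and 5405 in W (167 CPM), a ratio of at least 1579-fold, and was likewise higher in keratocytes than in any other such cluster. *Cxcl1*, a neutrophil attractant, went from 9.60 to 255 CPM. The other 7 that rose were expressed at under 20% of the level of another cluster, among them *Ccl2*, the main monocyte attractant (19.1 to 861 CPM, against 5168 CPM in the highest cluster), *Ccl7* (2.95 to 212 CPM), *Cxcl10* (3.16 to 126 CPM), *Cxcl5* (0.598 to 112 CPM) and *Ccl5* (no UMI to 165 CPM). All 10 remained at least 2-fold higher after the profile of the other cells was subtracted at the level of the epithelial markers. That level was not set on leukocyte RNA, so whether keratocytes made these chemokines was not tested. *Ccl2*, *Ccl7* and *Ccl8* are neighbours at chr11:82035571-82037453, chr11:82045712-82047525 and chr11:82115185-82116799.

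Of 29 cytokines and receptors counted, 8 were tested, 2 of them having passed only through W, and 5 of the 8 were at least 2-fold higher, 4 of the 5 at 20% or more of the level of every other cluster. *Il1rl1*, the receptor for interleukin 33, had no UMI in UW and 654 in W. *Csf1*, the macrophage growth factor, went from 11.3 to 53.9 CPM but at 15.5% of the level of another cluster, *Osmr*, the oncostatin M receptor, from 12.9 to 36.4 CPM, *Il6st*, the shared signalling chain gp130, from 125 to 283 CPM, and *Tnfrsf1a*, the main TNF receptor, from 68.3 to 145 CPM. *Il6* was at 0.984 CPM in UW and 1.02 CPM in W, and *Il1b* had 1 UMI in UW and 70 in W, so neither was tested. Of 20 genes of the NF-κB and Stat3 feedback list, 9 were at least 2-fold higher and 1 lower (14 and none per cell). Of the 9, 7 were at 20% or more of the level of every other cluster, and 1 passed the minimum only through W. The NF-κB inhibitors *Nfkbia* (396 to 1242 CPM) and *Tnfaip3* (13.1 to 71.6 CPM, 18.0% of the level of another cluster) were higher. So was *Cebpd*, an acute phase transcription factor (91.4 to 260 CPM). *Socs3*, the Stat3 feedback inhibitor, was lower (466 to 184 CPM) but short of 2-fold per cell (log2 ratio -0.69).

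Interferon-stimulated genes were higher as a group. 22 of 27 tested were at least 2-fold higher, none was lower, and the median log2 ratio was 2.51. Of the 27, 9 passed the minimum only through W, and of the other 18, 13 were at least 2-fold higher. 17 of the 22 were at 20% or more of the level of every other cluster, the remaining 5 were below it, and all 22 stayed at least 2-fold higher after subtracting free RNA. *Ifitm3*, which blocks viral entry, went from 967 to 5567 CPM, *Ifi27l2a* from 97.5 to 1375 CPM, *Bst2* (tetherin, which holds budding virus) from 114 to 917 CPM, *Irf7*, the factor that amplifies interferon production, from 11.6 to 342 CPM, *Gbp2*, a guanylate-binding GTPase, from 4.43 to 133 CPM, and *Ifit3* from 64.3 to 289 CPM. *Ifitm2*, already at 3288 CPM in UW, was at 3776 CPM in W. *Mpeg1*, the pore-forming perforin-2, which is abundant in macrophages, was at 3.87 and 165 CPM in keratocytes, while *C1qa* and *Adgre1*, which define macrophages, were at 1.51 and 0.277 CPM in W. Genes of MHC class I presentation, which shows cytosolic peptides to T cells, were higher in 11 of 15 cases and lower in none, with a median log2 ratio of 1.73. Of the 15, 2 passed only through W, 10 of the 11 were at 20% or more of the level of every other cluster, and all 11 stayed higher after subtracting free RNA. *H2-K1* went from 333 to 1745 CPM, *B2m* from 618 to 1909 CPM, *Psmb8*, an immunoproteasome subunit, from 21.4 to 191 CPM and *Tap1*, the peptide transporter, by a log2 ratio of 1.95. Reads of *H2-K1* and its close relatives may have been split between them.

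Promoters of the genes that rose together are shown because the letters of a regulatory motif could be looked up in them. The 250 bases before the annotated start, on the gene's strand, were taken from RefSeq (GRCm38.p6) and searched on both strands. The core of the interferon response element, searched as 2 copies of GAAA with any 2 bases between them, was present in 11 of the 19 interferon-stimulated genes that had such a window (57.9%) and in 3.46% of 27025 genes in the table. GGANTTTCC, the core of an NF-κB site, was present in 3 of 7 chemokine genes against 1.25% of all genes, and TGANTCA, the AP-1 site, in 2 of 7 metalloproteinase genes (*Mmp3* and *Mmp12*) against 7.82%. A match is a run of letters and not a measured binding site. The 4 windows below, with the motif in capitals, are those of the genes with the highest CPM in W among the genes that rose and matched, 2 for the interferon motif and 1 for each of the others. In *Bst2* 2 overlapping matches make 1 run, and *Ifit3* has 2 matches, both on the opposite strand. *Ifitm2* and *Stat2*, a transcription factor of interferon signalling, also matched, although neither reached 2-fold.
Bst2 (chr8:71537473-71537722, minus strand): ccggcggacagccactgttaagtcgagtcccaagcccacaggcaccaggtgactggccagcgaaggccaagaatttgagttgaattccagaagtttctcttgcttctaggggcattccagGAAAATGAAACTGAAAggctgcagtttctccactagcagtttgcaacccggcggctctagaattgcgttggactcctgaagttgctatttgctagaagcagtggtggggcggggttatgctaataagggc
Ifit3 (chr19:34583279-34583528, plus strand): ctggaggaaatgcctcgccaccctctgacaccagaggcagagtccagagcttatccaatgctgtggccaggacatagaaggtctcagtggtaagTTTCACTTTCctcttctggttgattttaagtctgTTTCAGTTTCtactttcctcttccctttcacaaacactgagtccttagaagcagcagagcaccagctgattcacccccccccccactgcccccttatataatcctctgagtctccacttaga
Cxcl1 (chr5:90890995-90891244, plus strand): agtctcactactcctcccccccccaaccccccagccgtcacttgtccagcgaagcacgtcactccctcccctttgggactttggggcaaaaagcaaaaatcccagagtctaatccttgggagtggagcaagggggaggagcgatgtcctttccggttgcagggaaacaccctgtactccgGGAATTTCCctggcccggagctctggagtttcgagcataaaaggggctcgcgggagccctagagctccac
Mmp3 (chr9:7445572-7445821, plus strand): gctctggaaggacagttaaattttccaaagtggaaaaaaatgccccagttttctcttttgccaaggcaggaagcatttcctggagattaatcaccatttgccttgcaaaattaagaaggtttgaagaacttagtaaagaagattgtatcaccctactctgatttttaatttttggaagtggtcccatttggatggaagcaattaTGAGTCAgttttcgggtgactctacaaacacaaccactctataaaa
The match in *Mmp3* begins 46 bases and that in *Cxcl1* 70 bases before the annotated start.

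**Figure D2:**
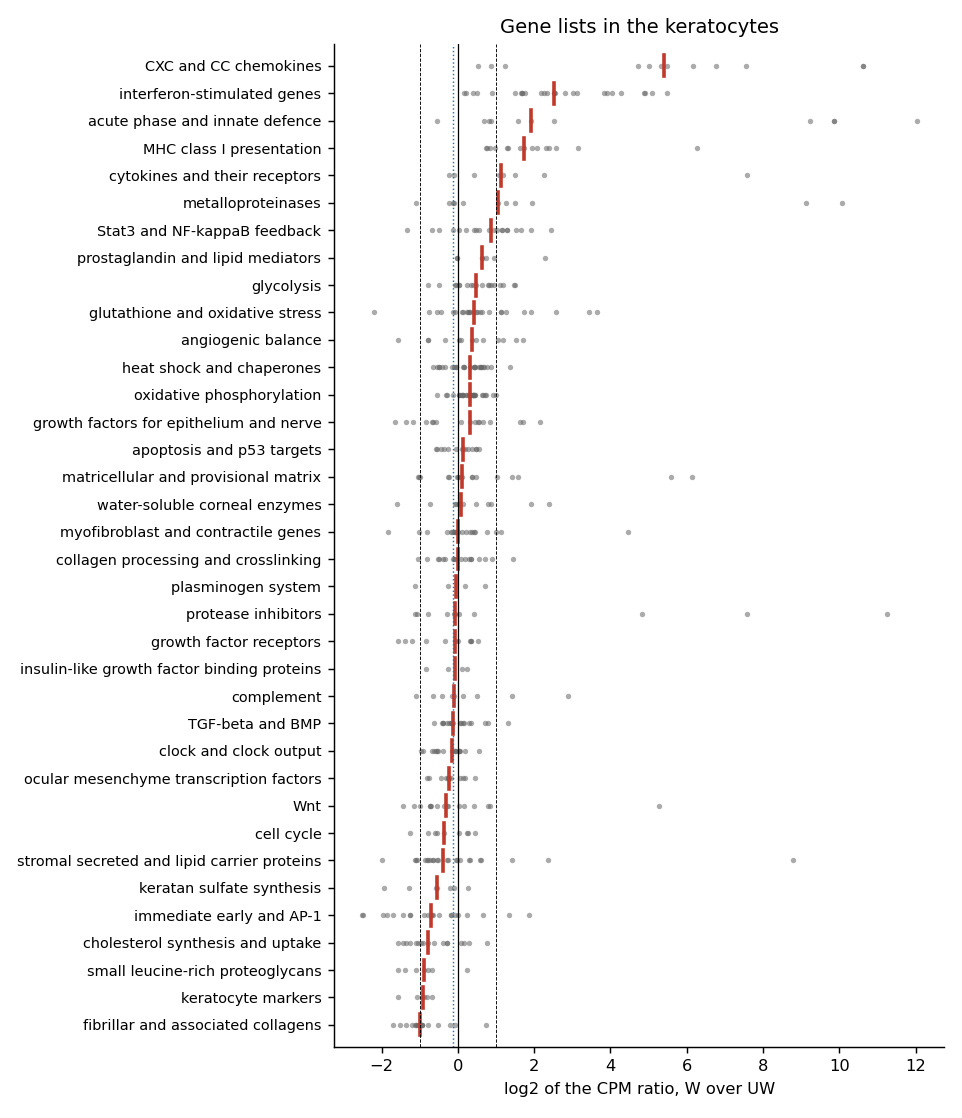
Each grey point is a gene tested in keratocytes, placed by its log2 ratio of CPM in W over UW and grouped by gene list, and each red bar is the median of its list. Dashed lines mark 2-fold and the dotted line the median of all genes (-0.12). Interferon-stimulated genes have a median of 2.51 and chemokines, of which 10 of 12 passed the minimum only through W, of 5.40, and fibrillar collagens (-0.99) and keratocyte markers (-0.90) at the bottom.

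Immediate early genes, which answer within minutes to growth factors and stress, were mostly lower. Of 22 tested, 8 were at least 2-fold lower and 2 higher, and 18 of the 22 were lower in CPM but 13 of the 22 per cell. *Egr1* went from 1248 to 218 CPM (log2 ratio -2.52), *Fos* from 3377 to 597 CPM (-2.50), *Fosb* from 1727 to 440 CPM (-1.97) and *Jun* from 1616 to 599 CPM (-1.43). The 2 that were higher were *Fosl1*, a slower member of the AP-1 family, at 7.17 and 18.2 CPM, and *Myc*, at 9.25 and 33.6 CPM, both of which passed the minimum only through W. *Fosl1* was short of 2-fold without the group of 229 W cells described below (log2 ratio 0.81) and with the W cells numbered 2 alone (0.74). Per cell, 5 of the list were lower and 3 higher by at least 2-fold. Such genes can also be induced by digestion, which both libraries went through, and the authors had removed cells with a signature of dissociation. The part of these steps in the difference was not tested.

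The most reduced gene under the naming rule was *Meg3*, a maternally expressed long non-coding RNA, at 593 CPM in UW and 59.8 CPM in W, a fall of 9.93-fold. *Peg3*, a paternally expressed zinc finger gene, fell from 479 to 115 CPM. *Crabp2*, which carries retinoic acid to its receptor, went from 156 to 20.8 CPM while it went from 1.70 to 18.5 CPM in the epithelium. *Tacr3*, the neurokinin B receptor, fell from 121 to 17.2 CPM, *Ephb1*, an ephrin receptor, from 103 to 16.7 CPM and *Nxph4*, a secreted neurexophilin, from 109 to 24.6 CPM. These 3 genes were higher in UW keratocytes than in cluster 10, where they were at 24.7, 19.3 and 8.58 CPM. *Alcam*, a cell adhesion molecule, fell from 527 to 137 CPM, *Mamdc2*, a secreted matrix protein, from 327 to 83.9 CPM, *Lztfl1*, a regulator of traffic into cilia, from 353 to 89.9 CPM, and *Bcl2l13*, a mitochondrial protein of the Bcl2 family, from 209 to 47.1 CPM. All 15 genes with the lowest ratios remained at least 2-fold lower per cell.

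Contractile and myofibroblast genes were split in CPM. Of 21 tested, 2 were higher and 2 lower by at least 2-fold, and the median log2 ratio was 0.01, whereas per cell 7 were higher and 1 lower, 3 of the 21 were below 0 and the median was 0.66. *Acta2*, smooth muscle actin, the defining gene of myofibroblasts, was at 2.64 CPM in UW and 6.72 CPM in W, below the level for testing. *S100a4*, a calcium-binding protein of motile cells, went from 45.7 to 1007 CPM, *Vim* (vimentin) from 1566 to 3127 CPM, just short of 2-fold, and *Myl9*, a light chain of contractile myosin, from 52.2 to 14.5 CPM. Of 17 matricellular proteins, 5 were higher and 2 lower (8 and none per cell), and 3 passed the minimum only through W, but 1 of the 5, *Mfap5*, a microfibril protein (43.7 to 89.5 CPM), was at 20% or more of the level of every other cluster (it was short of 2-fold in 3 other selections of cells, at 0.88 to 0.999), and 4 of the 5 remained after subtracting free RNA. *Tnc* (tenascin-C, a protein of wound matrix) went from 0.492 to 34.4 CPM and *Spp1* (osteopontin) from 1.16 to 55.7 CPM, at 9.87% and 1.13% of the level of another cluster, whereas *Fn1*, fibronectin, was at 393 and 327 CPM, *Thbs1* at 458 and 590 CPM and *Sparc*, a collagen-binding protein, at 8113 and 4086 CPM. *Tm4sf1*, a tetraspanin-like membrane protein of migrating cells, went from 17.3 to 292 CPM.

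Signals from stroma to epithelium and nerve differed by 2-fold in both directions in CPM but only upward per cell. Of 17 growth factors tested, 3 were higher and 3 lower by at least 2-fold in CPM, against 8 and none per cell, and the 3 that were higher in CPM passed the minimum only through W. *Fgf7*, keratinocyte growth factor, which acts on epithelium, went from 9.56 to 29.3 CPM, *Areg*, an EGF receptor ligand, from 9.95 to 44.4 CPM but at 2.82% of the level of another cluster and with nothing left after subtracting free RNA, and *Vegfd*, a lymphangiogenic factor, from 5.13 to 16.7 CPM. *Ptn*, *Mdk* and *Pdgfa*, heparin-binding and mesenchymal growth factors, had log2 ratios of -1.64, -1.36 and -1.17, of which the last was short of 2-fold with size factors (-0.99) and all 3 per cell (-0.99, -0.71 and -0.51). *Hgf* was barely detected, with 12 UMIs in UW and 2 in W. Of 11 growth factor receptors, 3 were lower and none higher (none and 1 per cell), among them *Ntrk2*, the receptor for brain-derived neurotrophic factor (1918 to 834 CPM), and *Kdr*, a VEGF receptor (216 to 72.6 CPM, against at most 33.4 CPM in another cluster of UW). Of 16 Wnt genes, *Frzb*, a secreted antagonist, was higher (0.527 to 20.5 CPM), and *Wnt11* (283 to 104 CPM) and *Wif1*, another antagonist (30.6 to 13.9 CPM), were lower, while per cell 4 were higher and none lower. Of 19 genes of TGF-β and BMP signalling 1 was higher and none lower (3 and none per cell), with *Tgfb2* at 54.7 and 69.5 CPM. None of 4 insulin-like growth factor binding proteins reached 2-fold, and *Igfbp2* was at 19067 and 10720 CPM. Of 13 genes of the angiogenic balance 4 were higher and 1 lower (7 and none per cell), and of 4 plasminogen system genes 1 was lower and none higher (none and 1 per cell).

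Of 24 stromal secreted proteins and lipid carriers, 3 were higher and 4 lower (5 and 1 per cell), and 16 of the 24 were lower in CPM but 10 of the 24 per cell. *Gpha2*, a glycoprotein hormone subunit better known from limbal epithelium, went from 821 to 4206 CPM in keratocytes and from 73.2 to 288 CPM in the epithelial clusters. *Apoe*, a lipid carrier, fell from 5713 to 2600 CPM. Complement had 2 of 9 higher and 1 lower (3 and none per cell). Both higher members were under 20% of the level of another cluster, and 1 passed the minimum only through W. *Clu*, a secreted chaperone that also restrains complement, was among them (13.2 to 35.4 CPM, at 4.66% of the level of another cluster). Of 7 prostaglandin enzymes 1 was higher and none lower (5 and none per cell). The 1 that was higher in CPM was *Ptgs1*, the constitutive cyclooxygenase (17.1 to 82.5 CPM). *Ptgs2*, the inducible form, was at 118 and 227 CPM.

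The lists of metabolic genes had medians between -0.79 and 0.48. Of 19 glycolysis genes 4 were higher and none lower, against 12 higher and none lower per cell, with *Pkm*, pyruvate kinase, at 448 and 1248 CPM and *Pgk1* at 113 and 255 CPM. None of 33 genes of oxidative phosphorylation reached 2-fold in CPM (log2 ratios from -0.54 to 0.99), while 14 of the 33 did so per cell, all higher. Of 17 genes of cholesterol synthesis and uptake 6 were lower and none higher, with *Hmgcs1*, an early enzyme of the pathway, at 150 and 55.6 CPM, and 13 of the 17 were lower in CPM but 9 of the 17 per cell, none of them by 2-fold. Of 26 redox genes 8 were higher and 1 lower (14 and 1 per cell), and 5 of the 8 were at 20% or more of the level of every other cluster. The 8 included *Hmox1*, heme oxygenase (20.3 to 256 CPM), and *Sod2*, the mitochondrial superoxide dismutase (142 to 845 CPM). They also included *Slc7a11*, the cystine importer (3.73 to 40.3 CPM), which was at 2.07% of the level of another cluster and passed the minimum only through W. Of 27 chaperones 1 was higher in CPM and 13 per cell, and none was lower. None of 17 clock genes and none of 14 apoptosis and p53 target genes reached 2-fold in CPM, while per cell 1 and 4 did, all higher. Of 9 cell cycle genes tested 1, *Ccnd2*, was lower, and *Mki67*, which marks dividing cells, was at 2.04 and 2.87 CPM, of which nothing was left in W after subtracting free RNA, against 21.6 and 47.9 CPM in the epithelium.

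Keratocytes of the W library did not share the new genes evenly. To compare cells at equal depth, each cell was thinned to 5000 UMIs, which left out 51 UW and 11 W cells. *Ifitm3* was found in 97.7% of UW cells and 100% of W cells, with a median of 4 and 25 UMIs per cell. *Kera* was found in 99.5% of W cells, and its median went from 37 to 13 UMIs. *Saa3* was found in 0.388% of UW cells and 52.1% of W cells (Clopper-Pearson interval 49.7 to 54.5%), against 12.1% of W epithelial cells, and with all UMIs in 67.3% of W keratocytes. In W the quartiles of *Saa3* were 0, 1 and 20 UMIs, and the highest cell had 299 of 5000. *Mmp3* was found in 75.2% of W cells, against 35.0% of W epithelial cells, with quartiles of 1, 3 and 21 and a highest value of 329. *Ccl2* was found in 55.2% of W cells (10.3% of W epithelial cells), *Lcn2* in 39.6% (6.79%), *Chil1* in 63.5% (4.51%) and *Cxcl9* in 12.9% (0.492%). *Ifitm3* was found in 15.1% and 94.0% of the epithelial cells of UW and W, and *Kera* in 7.62% of those of W. Epithelial cells are given for comparison. They can express these genes themselves, so their shares do not measure RNA free in the suspension. Their medians before thinning were 23669 UMIs in UW and 25553 in W, above those of the keratocytes.

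**Figure D3:**
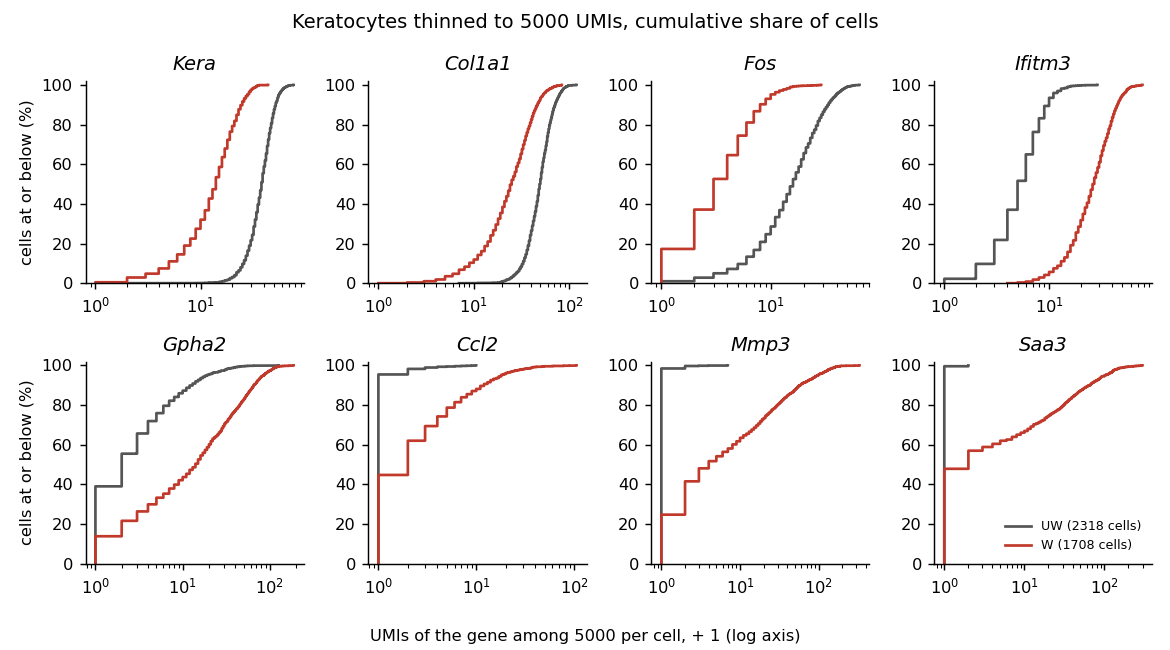
Cumulative share of keratocytes (vertical axis, percent) at or below a number of UMIs of the gene among 5000 per cell (horizontal axis, log scale of the number plus 1), for 2318 UW cells in grey and 1708 W cells in red. For *Ifitm3* and *Kera* the whole curve is shifted, whereas for *Saa3*, *Mmp3* and *Ccl2* the W curve starts at the cells with none and has a long tail, with a UMI in 52.1%, 75.2% and 55.2% of W cells.

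The variance divided by the mean of the thinned counts, which is 1 for counting error alone, had a median of 1.03 over 3588 genes in UW and 1.04 over 3430 genes in W. It was 74.9 for *Saa3* and 62.3 for *Mmp3* in W, the highest of the genes ranked, followed by *Gpha2* at 33.4. The ranking took genes with a mean of at least 0.2 UMIs and left out those that the naming rule excludes. In UW it was 38.9 for *Gm42418*, 24.6 for *Apoe*, 19.4 for *Angptl7* and 15.7 for *Gpha2*. *Gm42418* and *AY036118*, which overlap each other on chromosome 17, varied together in UW (Pearson's r 0.76 of the log2 of thinned counts plus 1, across 2318 cells of 1 library), and less so in W (0.42 across 1708 cells). *Angptl7* and *Apoe* had an r of 0.56 in UW and 0.47 in W. In W, *Mmp3* was lower where *Kera* and *Col1a1* were higher (r -0.40 and -0.39 across 1708 cells), and *Ccl2* was lower where *Col1a1* was higher (-0.38), while *Gpha2* was higher in cells with more *Dcn* and *Col1a1* (0.45 and 0.39). In UW, where *Mmp3* and *Ccl2* were near 0, the same pairs had an r of -0.04 and 0.02 for *Mmp3* and -0.01 for *Ccl2*, and *Gpha2*, which was at 821 CPM in UW, had -0.01 with *Dcn* and 0.02 with *Col1a1*. These are descriptions across cells that share a library. The W values pool the larger and smaller groups described below, which differ in *Mmp3*, *Kera*, *Col1a1* and *Gpha2*. An r within a group is not given here. Of the 1708 W cells, 254 had at least 10 UMIs of both *Saa3* and *Mmp3*, 310 of *Saa3* alone, 369 of *Mmp3* alone and 775 of neither. For *Saa3* 170 cells and for *Mmp3* 265 cells lay within 5 UMIs of that limit.

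A column of the deposited table numbers each cell by a clustering made within its own library, where the same number means different cells. In UW, 2348 of 2369 keratocytes had number 2, and in W 1477 had number 2, whereas 229 had number 10, which held 231 cells in all. The smaller W group had a median of 28015 UMIs per cell against 16781 in the larger. A first doublet call had marked 12 of its 229 cells and 1 of the 1477, although the final call gave all of them as single cells. Epithelial markers summed to 3368 CPM in the smaller and 5439 CPM in the larger group, mononuclear phagocyte markers to 19.9 and 31.7 CPM and neutrophil markers to 101 and 84.5 CPM. The 6 keratocyte markers summed to 24367 CPM in the smaller and 45853 CPM in the larger. The groups were made from these same counts, so their differences are a description. The smaller group had more *Mmp3* (10756 against 2908 CPM), *Timp1* (1329 against 307 CPM), *Mmp12* (229 against 14.3 CPM), *Tnc* (109 against 14.9 CPM), *Vim* (5218 against 2595 CPM) and *Asns*, asparagine synthetase (105 against 16.6 CPM). It had less *Kera* (984 against 2958 CPM), *Col1a1* (1697 against 5517 CPM), *Chst5* (34.9 against 144 CPM), *Gpha2* (835 against 5111 CPM) and *Chil1* (244 against 984 CPM). *Saa3* was nearly level at 3592 and 3712 CPM, as were *Lcn2* at 406 and 432 CPM and *Cxcl9* at 183 and 163 CPM, and *Ifitm3* was at 6040 and 5471 CPM. Interferon-stimulated genes differed by a median log2 ratio of -0.24 and fibrillar collagens by -0.99. Of 7709 genes with a mean of at least 10 CPM in these groups, 1.01% were at least 2-fold higher and 3.18% at least 2-fold lower in the smaller.

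**Figure D4:**
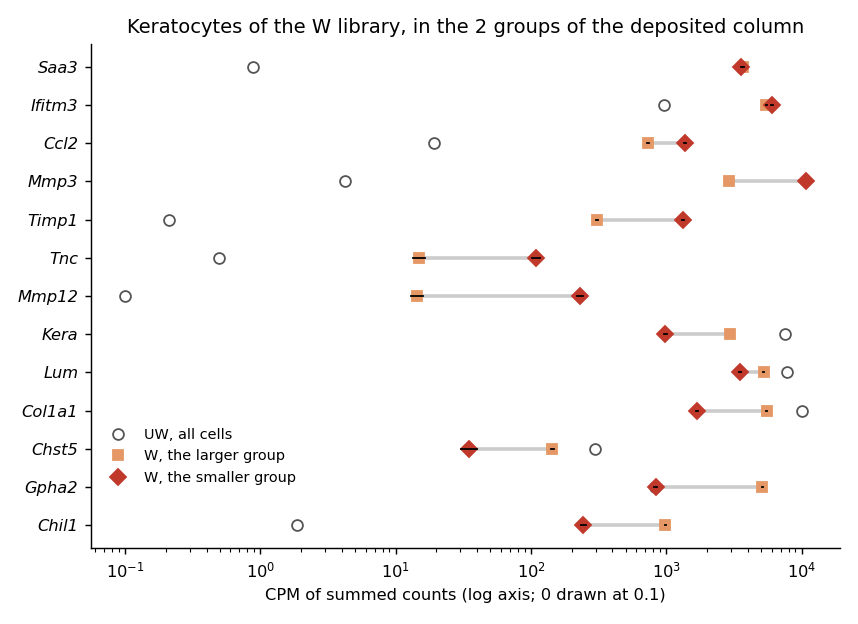
CPM of 13 genes (log axis) in UW keratocytes (open circles), the larger W group (squares, 1477 cells) and the smaller W group (diamonds, 229 cells). Black bars are 95% Poisson intervals of the W groups. *Saa3* and *Ifitm3* nearly coincide in both W groups, *Mmp3* and *Timp1* are higher in the smaller, and *Kera*, *Col1a1* and *Gpha2* are lower there.

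Cluster 10, the other stromal cluster, with 565 UW and 632 W cells, was compared to see which changes went beyond cluster 0. Both shared *Saa3*, which was at 0.525 and 1525 CPM in cluster 10, and both had lower *Kera* (2747 to 795 CPM in cluster 10). The starting level differed for other genes. *Mmp3* was already at 875 CPM in UW cells of cluster 10 and reached 8631 CPM, a log2 ratio of 3.30 beside 10.06 in keratocytes, and *Chil1* went from 151 to 2166 CPM. *Timp1* was at 19.3 and 307 CPM there. Interferon-stimulated genes had a median log2 ratio of 1.30 in cluster 10 and 2.51 in keratocytes, and immediate early genes of 0.17 and -0.70. *Fos* was at 2785 and 1473 CPM in cluster 10. *Angptl7* fell from 7454 to 2014 CPM in cluster 10, a log2 ratio of -1.89 beside -0.80 in keratocytes. With 1 library per condition these differences between clusters were not tested.

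**Figure D5:**
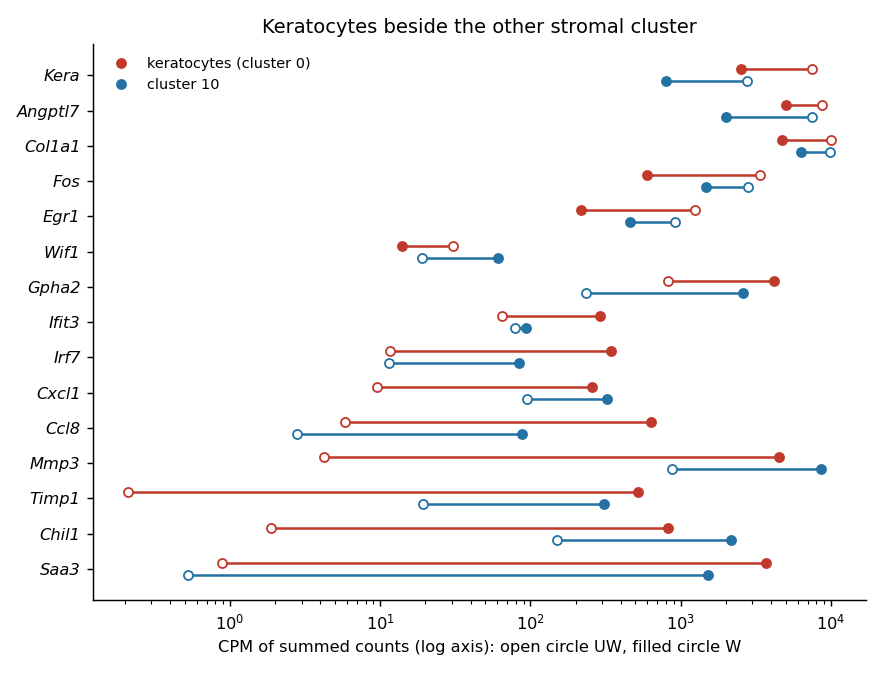
CPM of 15 genes (log axis) in UW (open circles) and W (filled circles), for keratocytes in red and cluster 10 in blue. *Saa3* rose from near 0 in both, *Mmp3* and *Chil1* started higher in cluster 10, and *Wif1* fell in keratocytes and rose in cluster 10.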

How the data were processed

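Single-cell RNA from 1 UW and 1 W library was measured with the 10x Genomics 3′ kit. The authors deposited raw UMI counts per gene and cell with a table of cells. The submitters' processing notes name Cell Ranger 3.1.0, Seurat and mm9, whereas the study's methods name mm10. By those methods the authors had filtered the cells, taken out doublets and those bearing a dissociation signature, integrated the libraries and clustered them. The final doublet column lists only single cells, although a first call marked 8 UW and 14 W keratocytes, which were kept.

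Counts of cluster 0 were summed per library over 20198 genes and scaled to CPM. A gene was tested with a mean of at least 10 CPM and called at 2-fold. No p-value was computed. Intervals are exact Poisson, or Clopper-Pearson for shares, at 95%, and a sum of 0 was set to 3 counts for a lower bound of the ratio. Cells were thinned to 5000 UMIs for shares and variance. Named genes were the 6 markers, members of 36 gene lists with high CPM or past 2-fold, the 15 highest and 15 lowest ratios where a gene had 20 counts or more and 100 CPM or more in either library, and the 10 genes with the highest variance over mean in each library. Mitochondrial, haemoglobin and ribosomal protein genes and genes under 20% of the CPM of another cluster of at least 50 cells were left out of the last 3 sets. Genes set beside the smaller W group, cluster 10 or other cells, and pairs given with a correlation, were chosen after their values were seen. Members and lists were chosen with earlier results of these data known. Positions are from GENCODE (GRCm38), with a match for 799 of 801 genes of the lists and text.

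Python 3.11.15, numpy 2.4.6, pandas 2.3.3, scipy 1.17.1 and matplotlib 3.10.9 were used. TMM factors came from edgeR 4.0.16 and size factors from DESeq2 1.42.0 in R 4.3.3, for scaling only. The call rule was run on simulated counts with counting error only, so that check says nothing about differences between animals or libraries. Genes absent from the count table were not analysed here, and some genes that met the naming rule are not reported here.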

Additional observations from a re-analysis of the deposited data

Results flagged for a closer look

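In 5 genes named for the keratocytes or in their gene lists the direction was opposite in other cells of the same libraries. Each was singled out because 1 set of cells was at least 2-fold lower in W and the other at least 2-fold higher. With 1 library per condition the difference was not tested. Epithelial values pool all epithelial clusters, and the paper reports other proportions of epithelial subtypes after wounding. A change of that mix was not told apart from a change within cells. The keratocyte side was short of 2-fold with other scalings for *Apoe* (log2 ratio -0.99 with TMM, -0.96 with size factors and -0.48 per cell) and *Wif1* (-0.996, -0.97 and -0.49, and -0.91 without the W cells numbered 10), and per cell for *Klf2* (-0.60) and *Ptn* (-0.99), with the direction kept. *Crabp2*, the carrier of retinoic acid, was at 156 and 20.8 CPM in keratocytes of UW and W (log2 ratio -2.90) and at 1.70 and 18.5 CPM in epithelial cells (3.45). *Ptn*, a heparin-binding growth factor, was at 109 and 34.9 CPM in keratocytes of UW and W (log2 ratio -1.64) and at 8.67 and 52.5 CPM in epithelial cells (2.60). *Apoe* was at 5713 and 2600 CPM in keratocytes (-1.14) and at 129 and 354 CPM in epithelial cells (1.46). *Klf2*, a transcription factor of the immediate early list, was at 478 and 200 CPM in keratocytes (-1.26) and reached 22.3 CPM in epithelial cells of W, a log2 ratio of 1.02. *Wif1*, the Wnt antagonist, was at 30.6 and 13.9 CPM in keratocytes (-1.14) and at 18.9 and 60.7 CPM in cluster 10 (1.68).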

How the results depend on the processing

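Of the 352 genes lower in W, TMM scaling left 232 and median-of-ratios size factors 218, all of them among the 352, while 380 and 402 genes were higher. With UMIs per cell 1401 genes were at least 2-fold higher and 66 lower. Of 144 genes named in the text, 25 that were at least 2-fold lower in CPM fell short of 2-fold per cell, among them *Ccnd2*, *Chst5*, *Hmgcs1*, *Jun*, *Kdr*, *Socs3*, *Tkt* and *Wnt11*, and 8 did so with TMM scaling and 9 with size factors, all with the same direction. A minimum mean of 1 CPM gave 686 higher and 1020 lower, and a minimum of 50 CPM gave 131 and 125. Thinned cells gave 292 and 349, of which 269 and 291 were among the genes called from all UMIs. Subtracting free RNA gave 299 and 351 and turned the direction of *S100a9* (log2 ratio -1.56), *C1qa* (-2.18), *Ptprc* (-0.47), *Lyz2* (-6.89), *Mki67* (-2.89), *Aldh1a3* (-1.01) and *Adgre1* (-0.56), whose level in W then fell to the floor, and it took *Krt14* to 0.24. The cells with the lower share of epithelial marker UMIs gave 335 and 492. Alternatives chosen after seeing the data gave 275 and 295 without the W cells numbered 10 within their library (where *A2m*, *Plod1*, *Pgk1*, *Ntrk2*, *Wif1*, *Mmp23*, *Fosl1*, *Krt12* and *Asns*, beside *Col1a1* and *Col12a1*, fell short of 2-fold at -0.89, -0.90, 0.93, -0.99, -0.91, -0.95, 0.81, -0.97 and 0.83), 277 and 297 with cells numbered 2 alone, 296 and 347 without cells of the first doublet call, and 324 and 467 when the epithelial share was taken without *Aldh3a1*. The cause of these changes was not tested. No paired analysis was possible because each condition had 1 library. By the study's methods the pooled cells were assigned to individual mice by an algorithm, and those assignments were not used here. Depth limited values near the floor of 3 counts, 0.105 CPM in UW and 0.0925 CPM in W.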
